A study of Mus musculus with 30 samples.

Results

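The transcripts described here are those of the mouse mitochondrial genome. They were taken from the count table as every row whose GENCODE mouse symbol starts with mt-, which gave 37 of 55487 genes: 13 mRNAs, 2 rRNAs and 22 tRNAs. All 37 lie on chromosome M of GRCm38 (GENCODE release M21). The 30 libraries were made from RNA of mouse hearts collected 8 weeks after transverse aortic constriction (TAC, which narrows the aorta and loads the heart with pressure) or sham surgery.

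Groups are named here by genotype or injection and surgery. In the floxed cohort, FF_sham and FF_TAC hearts carry the floxed Cpt1a gene and serve as controls, and KO_sham and KO_TAC hearts have a cardiac specific knockout of Cpt1a (4 libraries per group). Its product lets the mitochondrion take up long-chain fatty acids for oxidation. In the AAV9 cohort, C57Bl/6 mice received PBS (PBS_sham and PBS_TAC, 3 libraries each) or AAV9.Cpt1a (AAV_sham and AAV_TAC, 4 libraries each), a viral vector in which the cTNT promoter drives Cpt1a. The labels do not give the Cre driver of the knockout, the animals' age, or which mouse received which of the clip sizes used. The titles of the KO_TAC samples name TAC and sham together, while their genotype, treatment and column labels give knockout and TAC, which were used. Nothing says which libraries came from separate animals, so p-values measure the spread between libraries.

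The mitochondrial genome is a small circular DNA present in many copies per cell. Both of its strands, called heavy and light, are transcribed into long precursors that are cut at the tRNAs lying between the other genes. The mRNAs encode core subunits of respiratory complexes I, III and IV and of ATP synthase, which in the beating heart make most of the ATP, and the rRNAs and tRNAs serve the organelle's own ribosomes. The nuclear genome holds pasted copies of mitochondrial DNA, and reads from such a copy and from its source can look alike.

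Total counts ran from 14839758 to 22070373 per library. Cpt1a, the targeted gene, stood at 37.8 to 52.6 CPM in FF_sham and 11.1 to 19.6 CPM in KO_TAC, where CPM is a count scaled to the size of its library (here by TMM, except for marker and haemoglobin sums). The library labelled KO_sham 2, at 46.2 CPM, lay within the FF_sham range, and those labelled FF_TAC 2 and FF_TAC 3, at 20.3 and 16.2 CPM, lay at or below the lowest of the 3 other KO_sham libraries, 20.3 CPM. In 7 libraries (FF_TAC 2 and 3, KO_sham 2 and all 4 KO_TAC) summed haemoglobin transcripts were below 100 CPM, and they were 294 to 943 CPM in the 23 others. PBS_sham 3 also stood apart, with the lowest sum of 8 cardiomyocyte markers, 37859 CPM. Because all KO_TAC libraries are low in haemoglobin, the KO_TAC results are also given from a fit with low haemoglobin as a term.

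Several mitochondrial mRNAs have a nuclear copy that leaves aligned reads little to tell them by. A cluster on chromosome 1, minus strand, holds Gm28439, Gm10222, Gm28438, Gm28437, Gm10925, Gm28661 and Gm29216, which copy mt-Nd4, mt-Nd4l, mt-Nd3, mt-Co3, mt-Atp6, mt-Co2 and part of mt-Co1. Gm28437, at chr1:24613189-24613971, matched mt-Co3 at 783 of 783 bases, and the start of each is shown to make that plain. Gm28438, at chr1:24612775-24613119, differed from mt-Nd3 at 1 base, T3C, and Gm13339, at chr2:22590024-22590533, differed from mt-Nd2 at 17 of 510 bases. In the printed stretch of Gm13339 these are T579C, T603A, C638T and A668G. Positions are counted from 1 at the 5′ end of the mitochondrial gene, the mitochondrial base comes first, and differing bases are in capitals.
mt-Co3: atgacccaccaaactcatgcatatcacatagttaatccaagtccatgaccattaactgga
Gm28437: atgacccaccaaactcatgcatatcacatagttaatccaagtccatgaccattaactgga
mt-Nd3: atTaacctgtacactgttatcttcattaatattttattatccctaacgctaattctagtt
Gm28438: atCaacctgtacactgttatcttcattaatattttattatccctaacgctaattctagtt
mt-Nd2: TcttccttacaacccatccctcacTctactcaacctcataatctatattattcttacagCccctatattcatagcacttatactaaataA
Gm13339: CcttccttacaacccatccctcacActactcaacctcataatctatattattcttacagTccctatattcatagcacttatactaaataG

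Cut into all windows of 100 bases, the length of 1 read (fragments read from both ends are longer), mt-Co3 shared 99.9% of its windows with an annotated nuclear transcript. The shares were 99.5% for mt-Co2 and mt-Atp6, 98.5% for mt-Nd4l and 97.6% for mt-Nd3. They fell to 60.8% for mt-Nd4, 30.8% for mt-Co1 and 3.19% for mt-Nd2. None of the windows of mt-Nd1, mt-Nd5, mt-Nd6, mt-Cytb, mt-Atp8, mt-Rnr1 or mt-Rnr2 were found in a nuclear transcript. The stretch between Gm10925 and Gm28661 on chromosome 1, in which a copy of most of mt-Atp8 would lie, was not compared. How the authors' counting treated reads with more than 1 equal placement is not given in the sources used here.

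Levels among mRNAs and rRNAs were compared per length, in CPM (by plain library totals) per kilobase of gene (RPKM), as the median over the 30 libraries. The highest was mt-Co1, the catalytic subunit of cytochrome c oxidase, at 51150, followed by mt-Cytb (33200), mt-Nd1 (26176), mt-Nd2 (18213), mt-Nd6 (16264), mt-Nd4 (12856) and mt-Nd5 (9110). The rRNAs of the large and small ribosomal subunit, mt-Rnr2 (6649) and mt-Rnr1 (4535), came next, in libraries selected for poly(A). A gap followed, with mt-Co2 at 813, mt-Co3 at 615, mt-Atp6 at 363, mt-Nd3 at 290, mt-Atp8 at 112 and mt-Nd4l at 85.9. The ranges of neighbours in this order overlapped across libraries, except between mt-Rnr1 (lowest library 2631) and mt-Co2 (highest library 1590). Of the 6 mRNAs below that gap, 5 share nearly all their windows with a nuclear copy, and mt-Atp8 shares none with an annotated nuclear transcript. mt-Nd4l and mt-Nd4 are carried on 1 mRNA, as are mt-Atp8 and mt-Atp6, so the distance between mt-Nd4l and mt-Nd4 here is not a distance between separate RNA molecules. The deposited levels of the 5 genes with a near-complete copy are uncertain. Those of mt-Nd4 and mt-Co1, with 60.8% and 30.8% of windows shared, may be affected in part, which was not tested. For mt-Atp8 this was not settled, because the matching stretch of chromosome 1 was not compared.

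**Figure D1:**
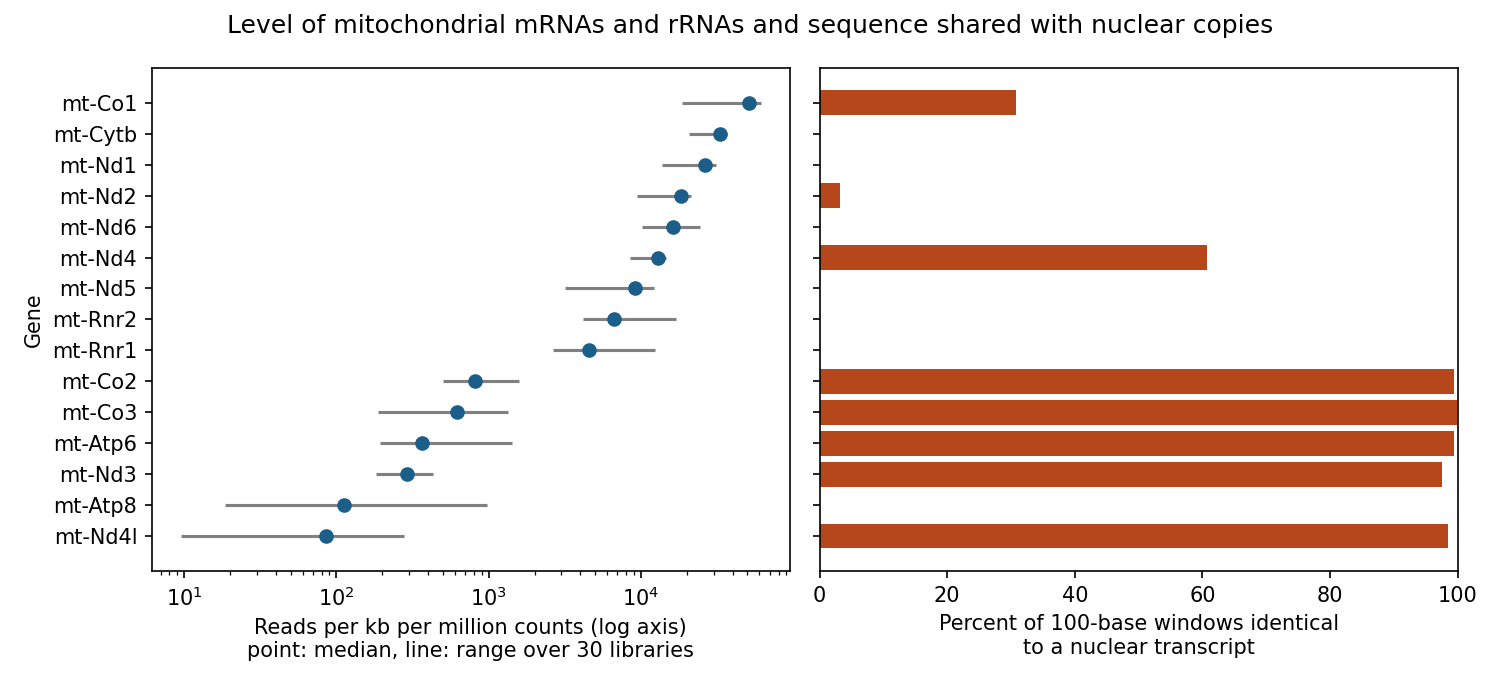
Left, level of each mitochondrial mRNA and rRNA in RPKM (log axis; point, median; line, range over 30 libraries); right, percent of its 100-base windows that are identical to a stretch of an annotated nuclear transcript. The genes with nearly all windows shared sit at the low end, from 813 down to 85.9. mt-Atp8, which shares none with an annotated transcript, sits there too.

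The share of counts assigned to the copy differed from library to library. Of the summed counts of mt-Co3 and Gm28437, the copy held between 15.3% and 86.4%, with a median of 35.4%. In KO_TAC it held 46.4%, 85.2%, 86.4% and 17.9% in replicates 1 to 4, and in KO_sham 73.3%, 74.8%, 28.3% and 19.5%. High and low libraries thus occurred in both groups, and PBS_sham 1 (85.1%) and AAV_TAC 2 (71.2%) were high as well. The copy's own counts ran from 1827 in PBS_TAC 2 to 32607 in KO_sham 1, so the total of gene and copy was not constant. The copy's share was 17.2% to 71.9% for mt-Atp6, 17.1% to 51.6% for mt-Co2 and 6.39% to 15.7% for mt-Nd3. The part of this assignment in the changes given for these genes was not tested, apart from adding the copy's counts to the gene's.

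**Figure D2:**
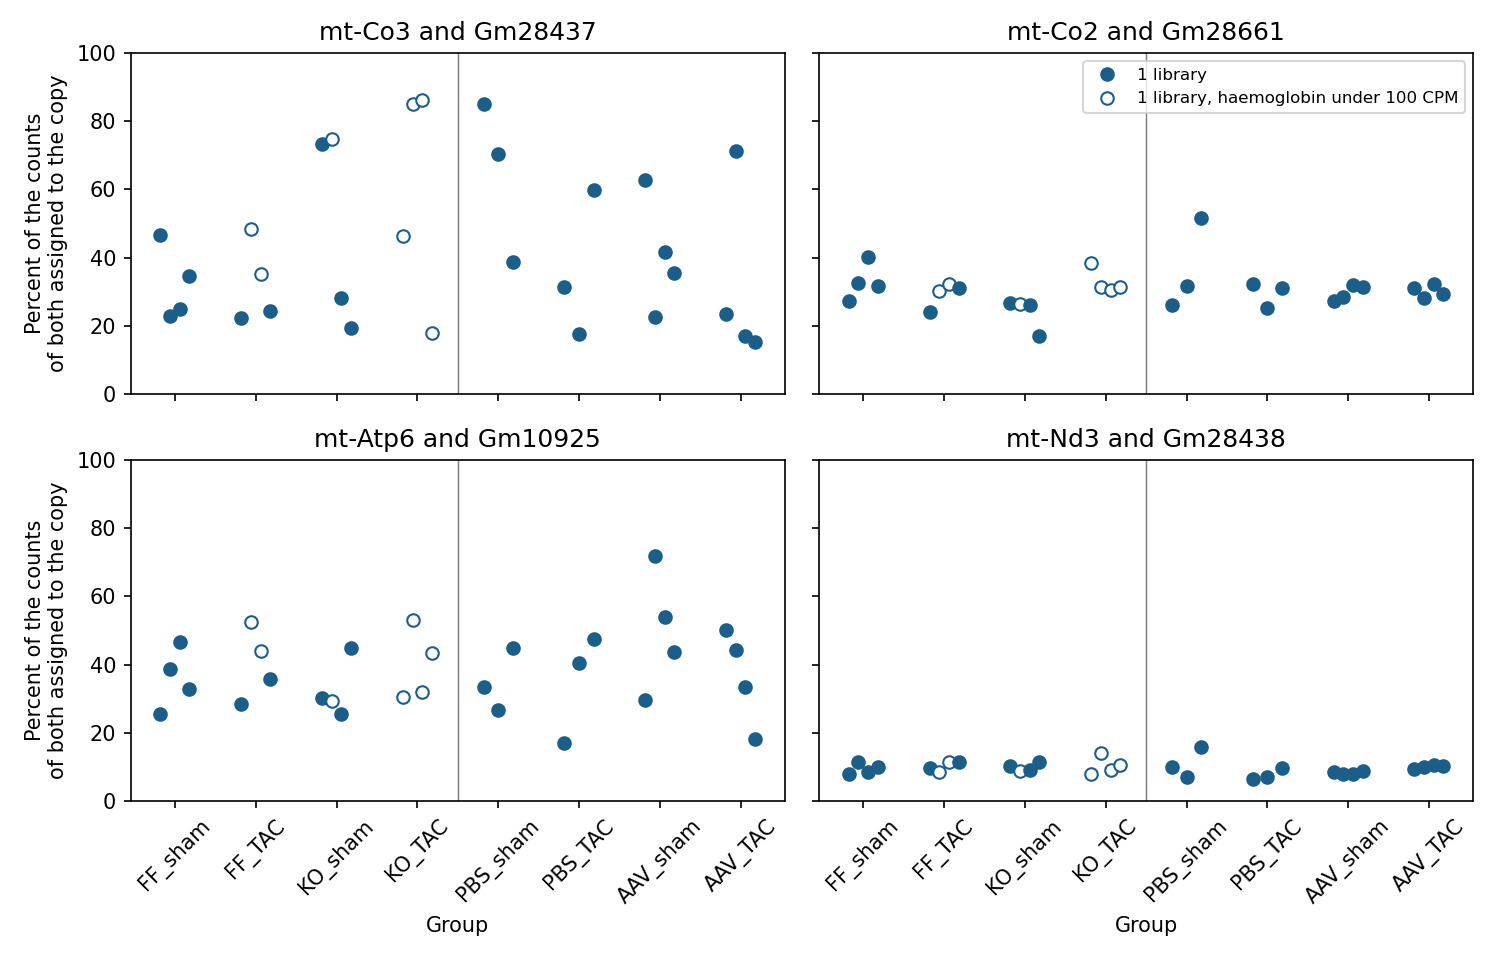
Percent of the summed counts of a mitochondrial gene and its nuclear copy that were assigned to the copy, 1 point per library in 8 groups; open points are libraries with haemoglobin below 100 CPM. For mt-Co3 the share ran from 15.3% to 86.4%, with high and low libraries within the same groups, and for mt-Nd3 it stayed at or below 15.7%.

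Mitochondrial transcripts made up a median of 22.1% of counts over the libraries. KO_TAC was the group that stood below the rest: its libraries had 15.7%, 12.1%, 12.4% and 18.7%. KO_sham had 22.8%, 23.5%, 24.4% and 21.6%, and FF_TAC had 22.6%, 20.9%, 21.1% and 22.1%. Every KO_TAC library lay below every library of the 7 other groups, where the lowest value was 19.3%, in PBS_sham 2. The mean difference was 8.41 percentage points between KO_sham and KO_TAC and 6.98 between FF_TAC and KO_TAC. The KO_TAC mean of 14.7% had an SD of 3.10 (n = 4). As a sum over the genes this share was not tested.

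In the other pairs of sham and TAC groups the shares overlapped. FF_sham had 23.9%, 22.03%, 23.0% and 26.0%, which overlapped FF_TAC. PBS_sham had 22.7%, 19.3% and 21.03%, and PBS_TAC had 22.3%, 19.5% and 19.9%. AAV_sham had 23.0%, 21.8%, 23.8% and 25.3%, and AAV_TAC had 21.4%, 20.3%, 23.4% and 22.8%, again with overlap. The 3 libraries outside KO_TAC that were low in haemoglobin, FF_TAC 2, FF_TAC 3 and KO_sham 2, had 20.9%, 21.1% and 23.5%, all above the highest KO_TAC library. FF_TAC 2 and FF_TAC 3 were still the lowest floxed libraries outside KO_TAC, ahead of KO_sham 4 at 21.6%, while KO_sham 2 was not low.

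**Figure D3:**
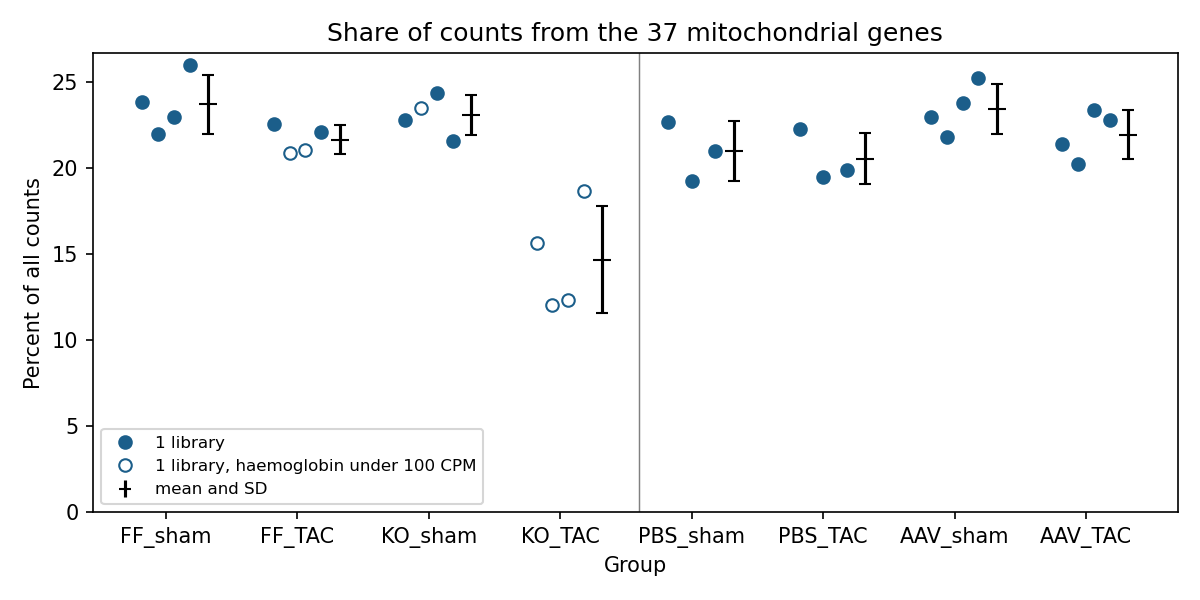
Percent of all counts that fell on the 37 mitochondrial genes, 1 point per library, with group mean and SD beside the points; open points are libraries with haemoglobin below 100 CPM. The 4 KO_TAC libraries lie between 12.1% and 18.7%, below all other libraries.

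Gene by gene, 32 of the 37 passed the filter on low counts in each cohort. The other 5, mt-Tf, mt-Tv, mt-Ts1, mt-Td and mt-Tk, are tRNAs and were not tested. Against KO_sham, 19 of the 32 were lower in KO_TAC and none was higher, at an adjusted p (Benjamini-Hochberg over all genes, edgeR quasi-likelihood test) below 0.05. Of all genes tested, 25.8% were called in that comparison, 11.5% lower and 14.3% higher. Against FF_TAC, 15 of the 32 were lower and none higher, where 14.3% of all genes were called, 6.8% lower and 7.53% higher. The median log2 fold change of the 32 was -0.70 against KO_sham and -0.71 against FF_TAC, while that of all genes was 0.02 and 0.04. The comparisons share the KO_TAC libraries, and 14 genes were called lower in both. In 14 of the 32 every KO_TAC library lay below every KO_sham library (43.8%, against 12% of all genes), and in none did every one lie above (11.1% of all genes). In bulk tissue, fewer cells of a type and less RNA per cell cannot be told apart.

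**Figure D4:**
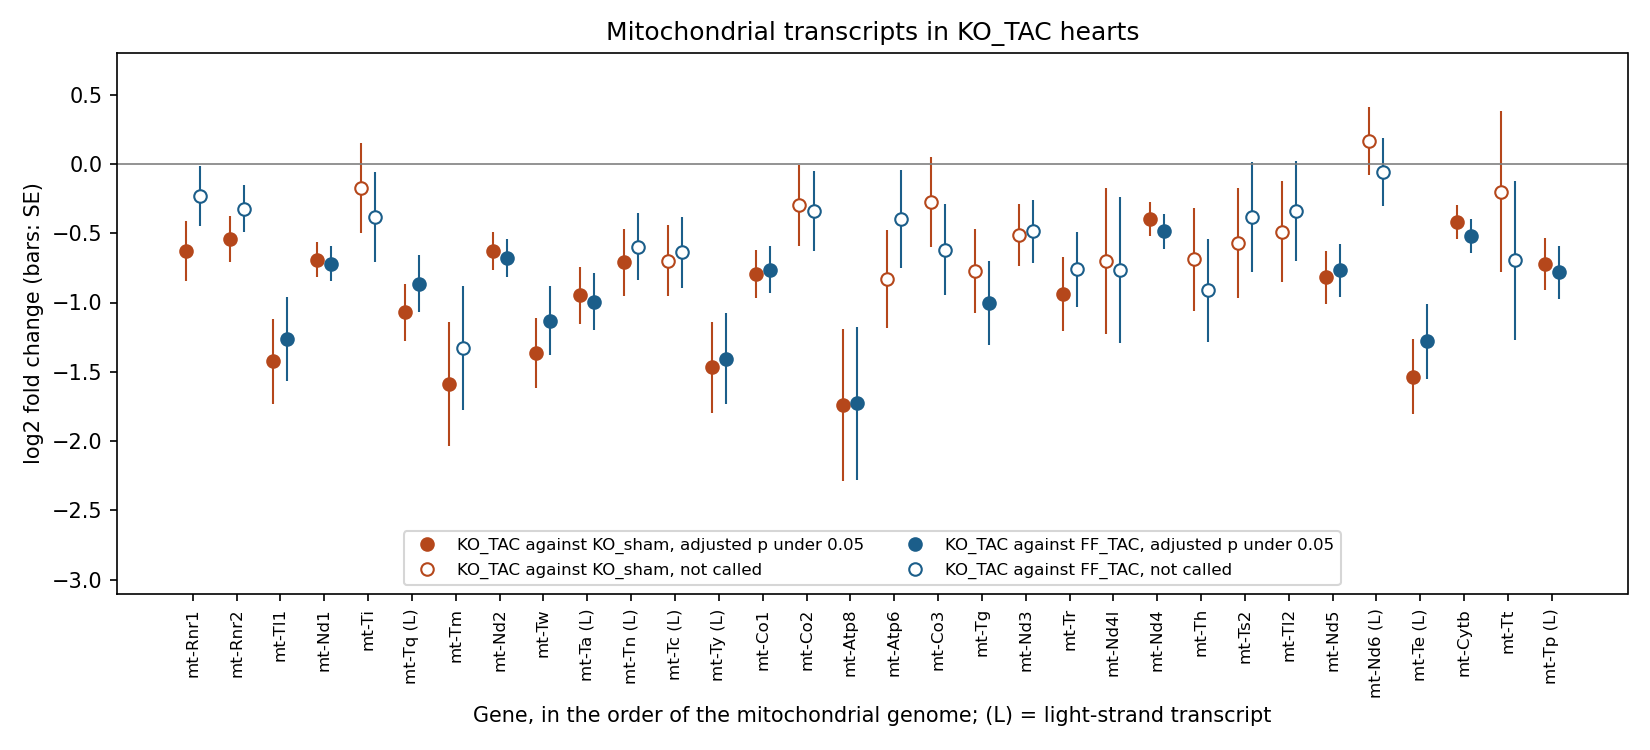
Log2 fold change with its SE for the 32 tested mitochondrial genes in KO_TAC against KO_sham (orange) and against FF_TAC (blue), in the order of the mitochondrial genome; filled points passed an adjusted p of 0.05, and (L) marks light-strand transcripts. All estimates lie below 0 except that of mt-Nd6 against KO_sham, 0.17.

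Complex I takes electrons from NADH, and the mitochondrial genome encodes 7 of its membrane subunits. Of these, mt-Nd1, mt-Nd2, mt-Nd4 and mt-Nd5 were lower in KO_TAC in both comparisons. mt-Nd1 stood at 14580, 15929, 13412 and 20269 CPM in KO_TAC. In KO_sham it stood at 26501, 25308, 28565 and 23352 CPM, and in FF_TAC at 26407, 27954, 25459 and 25995 CPM. No KO_TAC library reached either group. The log2 fold change was -0.69 (SE 0.13, adjusted p = 0.00283, edgeR) against KO_sham and -0.72 (adjusted p = 0.00253, edgeR) against FF_TAC. With haemoglobin as a term these were -0.69 (adjusted p = 0.0553, edgeR) and -0.72 (adjusted p = 0.0131, edgeR), so the first call was lost.

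mt-Nd5 fell further in some libraries than in others. It stood at 9799, 6403, 7012 and 13598 CPM in KO_TAC, and at 14941, 18358, 16690 and 14953 CPM in KO_sham, without overlap. Its log2 fold change was -0.82 (SE 0.19, adjusted p = 0.00852, edgeR). mt-Nd2 changed by -0.63 (adjusted p = 0.00713, edgeR), and its highest KO_TAC library, 16698 CPM, lay above the lowest KO_sham library, 16060 CPM. mt-Nd4, of which 60.8% of windows are shared with a copy, changed by -0.40 (adjusted p = 0.0306, edgeR), a call that was lost when any of 5 single libraries was left out. mt-Nd3 (-0.51, adjusted p = 0.102, edgeR) and mt-Nd4l (-0.70, SE 0.53, adjusted p = 0.333, edgeR) were not called. The haemoglobin term also ended the calls against KO_sham of mt-Nd2 (-0.64, adjusted p = 0.091, edgeR), mt-Nd4 (-0.51, adjusted p = 0.112, edgeR) and mt-Nd5 (-0.86, adjusted p = 0.0796, edgeR), and not those against FF_TAC.

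Complex III passes electrons to cytochrome c, and mt-Cytb is its mitochondrially encoded subunit. It stood at 25492, 26544, 23974 and 34809 CPM in KO_TAC, at 37281, 38742, 40738 and 31428 CPM in KO_sham, and at 37980, 41720, 40550 and 38619 CPM in FF_TAC. KO_TAC 4 overlapped KO_sham 4, and no KO_TAC library overlapped FF_TAC. The log2 fold change was -0.42 (SE 0.12, adjusted p = 0.0243, edgeR) against KO_sham and -0.52 (adjusted p = 0.0126, edgeR) against FF_TAC. The first of these calls was lost when any of 5 single libraries was left out and with the haemoglobin term (-0.49, adjusted p = 0.13, edgeR).

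Complex IV, cytochrome c oxidase, reduces oxygen to water, and its catalytic subunit mt-Co1 was lower in both comparisons. mt-Co1 stood at 50998, 31747, 36920 and 64482 CPM in KO_TAC. It stood at 77056, 85767, 84441 and 71527 CPM in KO_sham and at 78789, 76217, 77588 and 79812 CPM in FF_TAC, so the groups did not overlap. The log2 fold change was -0.79 (SE 0.17, adjusted p = 0.00638, edgeR) against KO_sham and -0.76 (adjusted p = 0.00968, edgeR) against FF_TAC. With the haemoglobin term they were -0.82 (adjusted p = 0.0746, edgeR) and -0.78 (adjusted p = 0.0327, edgeR). For the other oxidase subunits the estimates against KO_sham were -0.30 for mt-Co2 (SE 0.29, adjusted p = 0.457, edgeR) and -0.27 for mt-Co3 (SE 0.33, adjusted p = 0.55, edgeR). With the counts of Gm28437 added, that of mt-Co3 became 0.18 (SE 0.52) against KO_sham and 0.55 against FF_TAC, so its direction depends on the copy. With copies added, mt-Co1, mt-Nd2 and mt-Nd4 stayed at -0.79, -0.63 and -0.40.

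ATP synthase makes ATP from the proton gradient, and mt-Atp6 and mt-Atp8 encode parts of its membrane sector. mt-Atp8 was low and uneven: 7.13, 8.999, 3.89 and 11.6 CPM in KO_TAC against 28.5, 46.9, 18.7 and 11.4 CPM in KO_sham, with overlap only at KO_TAC 4 and KO_sham 4. Its log2 fold change was -1.74 (SE 0.55, adjusted p = 0.0316, edgeR), and -1.73 (adjusted p = 0.0473, edgeR) against FF_TAC. These calls were lost without any of 4 and any of 6 single libraries, and with the haemoglobin term (-2.04, adjusted p = 0.103, and -2.01, adjusted p = 0.0631, edgeR). mt-Atp6 was not called, at -0.83 (SE 0.35, adjusted p = 0.0915, edgeR) against KO_sham and -0.40 against FF_TAC. The genes overlap by 43 bases on the same strand, in capitals in the end of mt-Atp8, shown because a read inside them can belong to either gene.
mt-Atp8: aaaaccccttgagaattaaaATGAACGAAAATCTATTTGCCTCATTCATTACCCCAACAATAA

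mt-Nd6, the complex I subunit that is the only mRNA read from the light strand, did not follow the others. It stood at 4669, 14038, 9584 and 8664 CPM in KO_TAC. It stood at 8264, 8149, 9178 and 7369 CPM in KO_sham and at 8350, 12605, 9949 and 7572 CPM in FF_TAC. KO_TAC thus held the lowest and the highest library of the floxed cohort. The log2 fold change was 0.17 (SE 0.24, adjusted p = 0.636, edgeR) against KO_sham and -0.06 (adjusted p = 0.89, edgeR) against FF_TAC, and its sign changed under several alternatives, among them the haemoglobin term against KO_sham (-0.054). The 3′ ends of mt-Nd5 (chrM:11742-13565, plus strand) and mt-Nd6 (chrM:13552-14070, minus strand) overlap by 14 bases, in capitals in the last 60 bases of each, shown because the strand decides which gene a read from there counts for.
mt-Nd5: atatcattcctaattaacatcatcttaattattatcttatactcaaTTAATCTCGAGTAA
mt-Nd6: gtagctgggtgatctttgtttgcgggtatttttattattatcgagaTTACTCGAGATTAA

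The library kit keeps strand, but the strand setting of the counting is not given in the sources used here. Without it, light-strand RNA and antisense RNA of the heavy strand cannot be told apart for mt-Nd6.

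As a share of the counts of the 13 mRNAs, which does not depend on how libraries were scaled, mt-Nd6 held 3.58%, 11.7%, 8.38% and 4.90% in KO_TAC. In KO_sham it held 4.05%, 3.77%, 4.15% and 4.05%, in FF_sham 4.10%, 3.74%, 3.89% and 3.83%, and in FF_TAC 4.03%, 5.82%, 4.76% and 3.65%. The AAV9 libraries lay between 3.59% and 4.72%. The libraries above 4.72% were FF_TAC 2 and 3 and KO_TAC 2, 3 and 4, all of them low in haemoglobin, while the low libraries KO_sham 2 and KO_TAC 1 stood at 3.77% and 3.58%.

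Among the other mRNAs, the shares of mt-Co1 and mt-Nd5 shifted in KO_TAC 2 and 3, and that of mt-Cytb in all 4 KO_TAC libraries. In KO_TAC 2, mt-Co1 held 26.4% of the mRNA counts, mt-Nd5 5.33% and mt-Cytb 22.1%. Across the other groups of the floxed cohort mt-Co1 held 35.2% to 39.6%, mt-Nd5 6.83% to 8.88% and mt-Cytb 17.3% to 19.4%. The limits 35.2% and 6.83% were those of FF_TAC 2, and 19.4% was that of FF_TAC 3. KO_TAC 3 stood on the same side for each, at 32.3%, 6.13% and 20.97%. KO_TAC 1, at 39.2%, 7.52% and 19.6%, was within the range of the other groups for mt-Co1 and mt-Nd5, although its total mitochondrial share was low as well. So was KO_TAC 4, at 36.4%, 7.69% and 19.7%, although its mt-Nd6 share was raised. For mt-Cytb all 4 KO_TAC libraries lay above the range of the other groups. For mt-Nd1, KO_TAC 1 and 4, at 11.2% and 11.5%, lay below the lowest library of those groups, 11.7%. KO_TAC 2, at 13.3%, lay above their highest, 13.1%, and KO_TAC 3 lay within. Low mitochondrial RNA thus came with some change of mixture in each KO_TAC library, but the genes that moved differed between libraries.

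**Figure D5:**
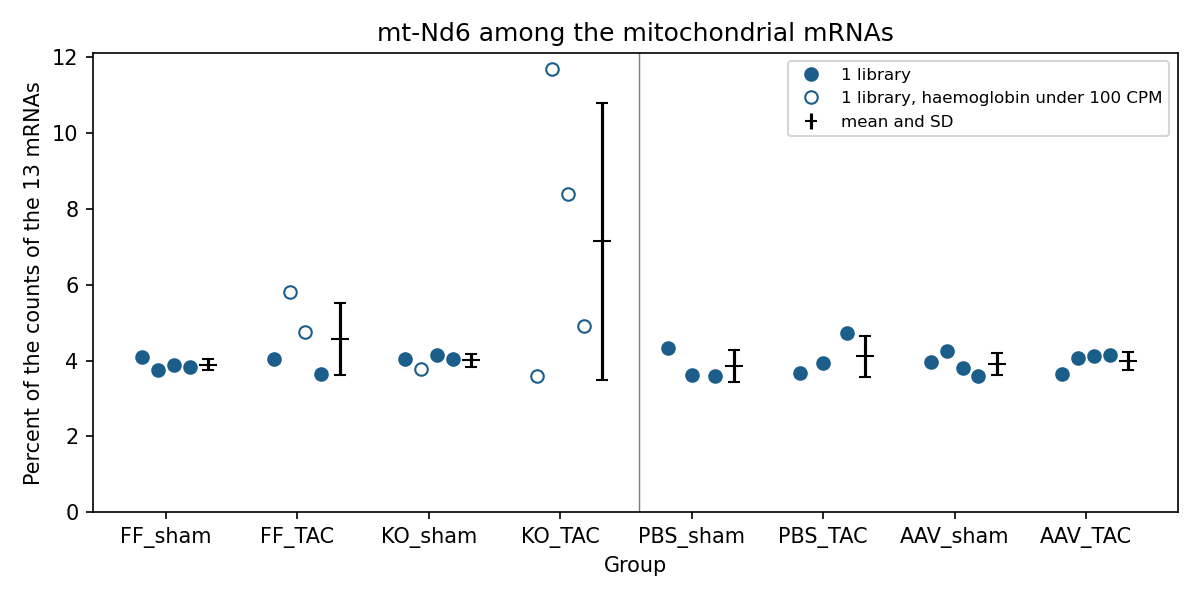
mt-Nd6 as a percent of the counts of the 13 mitochondrial mRNAs, 1 point per library, with group mean and SD beside the points; open points are libraries with haemoglobin below 100 CPM. Most libraries lie between 3.58% and 4.72%, and FF_TAC 2 and 3 and KO_TAC 2, 3 and 4 lie above.

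The rRNAs were lower in KO_TAC than in KO_sham, but their calls were not steady. mt-Rnr2 stood at 5798, 9482, 7890 and 7914 CPM in KO_TAC and at 9072, 13040, 12706 and 10495 CPM in KO_sham, where KO_TAC 2 overlapped KO_sham 1. Its log2 fold change was -0.54 (SE 0.17, adjusted p = 0.0283, edgeR), and that of mt-Rnr1 was -0.63 (SE 0.22, adjusted p = 0.0435, edgeR). The call of mt-Rnr2 was lost without any of 3 single libraries and that of mt-Rnr1 without any of 7. Both were lost with the haemoglobin term, at -0.68 (adjusted p = 0.106, edgeR) and -0.70 (adjusted p = 0.196, edgeR). Against FF_TAC neither was called, at -0.32 (adjusted p = 0.2, edgeR) and -0.23 (adjusted p = 0.484, edgeR). In poly(A)-selected libraries these values do not measure all rRNA.

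Mature tRNAs are short and bear no poly(A) tail, so poly(A) selection limits what these counts measure. On average 0.0767% of FF_sham counts came from all 22 together. Of the 17 tested, 10 were lower in KO_TAC than in KO_sham: 6 of 7 light-strand tRNAs (mt-Tq, mt-Ta, mt-Tn, mt-Ty, mt-Te and mt-Tp) and 4 of 10 heavy-strand tRNAs (mt-Tl1, mt-Tm, mt-Tw and mt-Tr). Against FF_TAC 8 were lower, 5 light-strand and 3 heavy-strand, with mt-Tg in place of mt-Tn, mt-Tm and mt-Tr. The share of light-strand tRNAs called was not tested against that of heavy-strand ones. The tested tRNAs that were called in neither comparison were mt-Ti, mt-Tc, mt-Th, mt-Ts2, mt-Tl2 and mt-Tt.

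mt-Te, the glutamate tRNA, lies directly beside mt-Nd6 on the same strand (chrM:14071-14139, minus strand) and moved differently from it. It is shown whole because it was the 1 gene still called against KO_sham with haemoglobin as a term in the fit.
mt-Te: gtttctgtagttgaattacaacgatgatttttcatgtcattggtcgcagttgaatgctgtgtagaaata

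mt-Te stood at 35.2, 17.4, 34.1 and 50.9 CPM in KO_TAC, at 84.1, 119, 114 and 83.1 CPM in KO_sham and at 114, 77.1, 65.1 and 78.3 CPM in FF_TAC. The groups did not overlap. Its log2 fold change was -1.54 (SE 0.27, adjusted p = 0.00246, edgeR) against KO_sham and -1.28 (adjusted p = 0.00675, edgeR) against FF_TAC. KO_TAC 2, the library with the highest mt-Nd6, had the lowest mt-Te. Of the other abundant tRNAs, mt-Tp, the proline tRNA, changed by -0.72 (SE 0.19, adjusted p = 0.0148, edgeR) against KO_sham and -0.78 (adjusted p = 0.0134, edgeR) against FF_TAC. With the haemoglobin term these were -0.88 (adjusted p = 0.067, edgeR) and -0.88 (adjusted p = 0.0201, edgeR). mt-Tn, the asparagine tRNA, changed by -0.71 (adjusted p = 0.0427, edgeR), a call lost without any of 6 single libraries and with the haemoglobin term (adjusted p = 0.133, edgeR), and was not called against FF_TAC, at -0.60 (adjusted p = 0.107, edgeR).

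Several library properties moved with KO_TAC, though not in KO_TAC alone. The sum of 12 early response genes, which rise within minutes of stress to cells, was 1962 to 5476 CPM in the 7 haemoglobin-low libraries and 160 to 936 CPM in the others. The sum of 5 atrial markers was 4461 to 19437 CPM in KO_TAC and 108 to 3151 CPM in KO_sham, with 1 of 4 tested markers called higher. Of the libraries outside KO_TAC, only FF_sham 2 (5539 CPM) and PBS_sham 2 (6135 CPM) lay above the lowest KO_TAC library in this sum. The sum of 7 fibroblast markers was 2015 to 2323 CPM in KO_TAC against 902 to 1332 CPM in KO_sham, with 4 of 7 called higher. Outside KO_TAC only PBS_sham 3, at 2057 CPM, reached that range. The sum of 8 cardiomyocyte markers was 55180 to 68401 CPM in KO_TAC against 62169 to 67652 CPM in KO_sham. In that comparison 2 of the 8, and 3 of 6 endothelial markers, were called lower, and 2 of the 12 early response genes higher. Of all genes, 11.5% were lower and 14.3% higher there. Of 7 macrophage markers, 1 was lower against KO_sham and 3 were higher against FF_TAC. Against FF_TAC, 4 of 7 fibroblast and 1 of 4 atrial markers were higher and 2 of 8 cardiomyocyte markers lower. Of the endothelial markers, 3 were lower and 1 higher. There 6.8% of all genes were lower and 7.53% higher. No marker of these lists was at 0 in all KO_TAC libraries. The part of these cell types and of early response in the mitochondrial result was not tested, apart from atrial tissue. With log2 CPM of the atrial light chain Myl7 as a term, 21 mitochondrial genes were lower against KO_sham and 16 against FF_TAC, where 27.6% and 19.4% of all genes were called.

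With haemoglobin as a term, 1 of the 19 genes, mt-Te, kept its call against KO_sham (-1.47, adjusted p = 0.0397, edgeR), and 11 of 15 kept it against FF_TAC. Calls among all genes fell as well, from 25.8% to 1.75% and from 14.3% to 7.23%. The median over the 32 was -0.69 and -0.70 in these fits. The haemoglobin term rests on the low libraries FF_TAC 2, FF_TAC 3 and KO_sham 2, since all KO_TAC libraries are low. Among low libraries alone, where KO_TAC faced FF_TAC 2 and 3, edgeR called none of the 32 and none of all genes. There 10 were lower and 0 higher at an unadjusted p below 0.05 (4.57% and 6.01% of all genes), the median over the 32 was -0.68, and mt-Nd1 changed by -0.76 (adjusted p = 0.366, edgeR). DESeq2 and limma voom were not run on those libraries alone. With FF_TAC 2, FF_TAC 3 and KO_sham 2 left out, whose Cpt1a went against their labels, 14 genes were lower against KO_sham (13 of the 19) and 14 against FF_TAC (12 of the 15), where 23.4% and 22.4% of all genes were called. In that fit all KO_TAC libraries are low in haemoglobin and all others high, so knockout with TAC and low haemoglobin cannot be told apart. Without KO_TAC 3, 11 were lower in each comparison, where 12.3% and 7.59% of all genes were called.

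TAC in floxed controls called none of the 32 genes, and none of the 15596 genes tested (0%) were called there at all. At an unadjusted p below 0.05, edgeR counted 1 higher and 2 lower (6.67% and 4.44% of all genes). DESeq2 and limma voom called none of the 32, where they called 1.07% and 0% of all genes. The log2 fold change of mt-Nd1 was -0.07 (SE 0.13, adjusted p = 0.834, edgeR) and that of mt-Co1 was -0.14 (SE 0.17, adjusted p = 0.762, edgeR). The knockout without TAC, KO_sham against FF_sham, likewise called none (0% of all genes). There 1 was lower and none higher at an unadjusted p below 0.05 (2.44% and 2.78% of all genes). None was called by DESeq2, which gave an adjusted p to only 2771 genes and called 0.505% of them. Nor was any called by limma voom, which called 0.192% of all genes.

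Whether TAC acted differently in knockouts was tested as an interaction, in which edgeR called none of the 32 and 0.0449% of all genes, 0.0256% higher and 0.0192% lower. At an unadjusted p below 0.05, 13 were lower and none higher, where 6.54% of all genes were lower and 6.6% higher, and the median over the 32 was -0.59 where that of all genes was 0.03. The interaction was -0.62 for mt-Nd1 (SE 0.18, adjusted p = 0.156, edgeR), -0.66 for mt-Co1 (SE 0.24, adjusted p = 0.265, edgeR) and -0.42 for mt-Cytb (SE 0.17, adjusted p = 0.322, edgeR). DESeq2 called 1 gene, mt-Nd1, and 2.35% of all genes. limma voom with sample weights called 11, all lower, and 18.8% of all genes. With KO_TAC 4 left out, edgeR called 2, and 0.641% of all genes.

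No mitochondrial gene was called in the AAV9 cohort by edgeR. PBS_TAC against PBS_sham called 0.0318% of all genes, 0.0127% higher and 0.0191% lower. The rRNAs had the smallest p there: mt-Rnr1 stood at 4250, 3448 and 4043 CPM after TAC and at 6890, 4492 and 8470 CPM after sham, without overlap. The highest of these, 8470 CPM, is PBS_sham 3, the library that stood apart, in which 3.85% of counts were rRNA against 2.24% and 1.73% in the other PBS_sham libraries. The rRNAs were the only 2 of the 32 (6.25%) wholly lower after TAC, where 6.57% of all genes were. The log2 fold change of mt-Rnr1 was -0.76 (SE 0.25, adjusted p = 0.188, edgeR), and that of mt-Rnr2 was -0.72 (SE 0.25, adjusted p = 0.189, edgeR). Without PBS_sham 3 these were -0.54 and -0.56. DESeq2 called both lower, and 2.25% of all genes, and limma voom called 1 other gene higher, and 1.6% of all genes. At an unadjusted p below 0.05, edgeR counted 1 higher and 2 lower (6.5% and 12% of all genes).

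AAV_TAC against AAV_sham called 0.00635% of all genes. Of the 32, edgeR counted 2 higher and 2 lower at an unadjusted p below 0.05 (3.39% and 3.66% of all genes), limma voom called 1 higher (2.33% of all genes called) and DESeq2 none. mt-Rnr1 was also lower in estimate there, -0.48 (SE 0.22, adjusted p = 0.683, edgeR). Its values were 3489, 3241, 4530 and 4727 CPM after TAC and 5513, 4766, 5938 and 6110 CPM after sham, where the groups did not overlap. Of the 32, 4 were wholly lower after TAC (12.5%, against 5.79% of all genes) and 1 wholly higher (3.12%, against 4.9%).

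AAV_sham against PBS_sham called 0.0127% of all genes by the adjusted p. At an unadjusted p below 0.05, 4 of the 32 were higher and none lower, where 5.93% of all genes were higher and 14.8% lower. mt-Tp was 0.57 higher (SE 0.20, adjusted p = 0.173, edgeR) and mt-Nd5 0.58 higher (SE 0.23, adjusted p = 0.2, edgeR). mt-Nd5 stood at 19354, 17142, 20801 and 24190 CPM with the vector and at 16507, 13667 and 10701 CPM with PBS, where PBS_sham 3, the library that stood apart, was lowest. Without PBS_sham 1, 9 of the 32 were called higher, where 17.4% of all genes were called. AAV_TAC against PBS_TAC called 0.0381% of all genes, 0.0127% higher and 0.0254% lower, with 1 of the 32 higher at an unadjusted p below 0.05 (1.23% of all genes), and the vector by TAC interaction called 0.00635%, with none of the 32 at an unadjusted p below 0.05. DESeq2 and limma voom called none of the 32 in these 3 comparisons, and few of all genes. Their shares of all genes were 1.97% and 0.445% for AAV_sham against PBS_sham and 0.232% and 0.616% for AAV_TAC against PBS_TAC. For the interaction they were 0.0793% and 0.0826%.

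The nuclear genes that serve mitochondrial RNA changed in smaller numbers. Of 27 genes of mitochondrial DNA maintenance and transcription, all tested, 1 rose and 2 fell in KO_TAC against KO_sham. Lonp1, a protease of the matrix, rose by 0.56 (adjusted p = 0.0204, edgeR). Top1mt, the mitochondrial topoisomerase, changed by -0.52 (adjusted p = 0.0155, edgeR) and Rrm2b, a ribonucleotide reductase subunit, by -0.56 (adjusted p = 0.0285, edgeR). Against FF_TAC 2 fell and none rose: Polrmt, the mitochondrial RNA polymerase, at -0.44 (adjusted p = 0.0207, edgeR) and Mterf2, a termination factor family member, at -0.47 (adjusted p = 0.0375, edgeR). The shares of this list called in either direction lie below those of all genes, 25.8% and 14.3%. Lower genes alone made up 11.5% and 6.8% of all genes.

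Of 41 genes of mitochondrial RNA processing, stability and modification, 3 rose and 4 fell against KO_sham, where 14.3% of all genes rose and 11.5% fell. Mettl17, which acts on the small mitochondrial ribosomal subunit, changed by -0.57 (adjusted p = 0.00229, edgeR) and Fastkd1, an RNA-binding protein, by -0.60 (adjusted p = 0.00465, edgeR). Rexo2, an oligoribonuclease, rose by 0.86 (adjusted p = 0.0133, edgeR) and Pus1, a pseudouridine synthase, rose by 0.59 (adjusted p = 0.0206, edgeR). Against FF_TAC 9 fell and none rose, where 6.8% of all genes fell, among them Mettl17 at -0.56 (adjusted p = 0.00262, edgeR), Fastkd1 at -0.65 (adjusted p = 0.00348, edgeR), Fastk, of the same family, at -0.54 (adjusted p = 0.00276, edgeR), and Lrpprc, which stabilises mitochondrial mRNAs, at -0.49 (adjusted p = 0.00937, edgeR). The list's median was -0.01 against KO_sham and -0.17 against FF_TAC.

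The nuclear-encoded partners of the mitochondrial subunits were counted in the same fits, and their counts were not tested against the mitochondrial ones. Of 36 nuclear genes of the respiratory chain and ATP synthase, 2 were lower in KO_TAC against KO_sham and none higher, with a median of 0.07 (11.5% of all genes lower). They were Sdha, the catalytic subunit of complex II, at -0.51 (adjusted p = 0.00279, edgeR) and Ndufs1, a core subunit of complex I, at -0.46 (adjusted p = 0.00691, edgeR). Against FF_TAC they were joined by Uqcrc2, a core subunit of complex III, at -0.36 (adjusted p = 0.0152, edgeR), and the median was -0.13 (6.8% of all genes lower). None of these 3 lists had a called gene in the 8 other comparisons, where at most 0.0449% of all genes were called. Of the 6 nuclear copies on the list made for this count, which leaves out Gm10222 and Gm13339, Gm28439, the copy of part of mt-Nd4, was lower in both, at -0.81 (adjusted p = 0.0476, edgeR) and -0.90 (adjusted p = 0.0463, edgeR).

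Across the 30 libraries, the nuclear genes whose log2 CPM followed the summed mitochondrial mRNAs most closely, of 15272 compared, were AC132253.9, a long noncoding RNA in GENCODE (Pearson r 0.941), Agtr1a, an angiotensin II receptor (0.931), Sord, sorbitol dehydrogenase (0.929), Armc2 (0.914) and Abcc9, a subunit of ATP-sensitive potassium channels (0.913). Within the 16 floxed libraries r was 0.958, 0.945, 0.951, 0.924 and 0.934. Within the 14 AAV9 libraries, where edgeR called no mitochondrial gene, it was 0.911, 0.931, 0.883, 0.914 and 0.877. These are descriptions over libraries that share scaling and group structure. The genes were picked by r over the same 30 libraries, so r within a cohort is no separate test.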

How the data were processed

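The authors deposited whole-number counts per gene for 30 libraries, made from poly(A)-selected, strand-preserving, paired-end libraries per the labels' protocols. The submitters' processing notes name HISAT2 2.1.0, featureCounts, Subread 1.5.1 and GRCm38; the annotation release, strand setting and treatment of multiply placed reads are not given in the sources used here. GENCODE M21 gave a symbol to 55141 of 55487 identifiers, and the rest held 0.0192% of counts. Over 42 pairs of libraries within groups, chi-square per degree of freedom was 6.29 to 234, so none was a duplicate.

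Each cohort was fitted separately with edgeR 4.0.16 (R 4.3.3; TMM, filterByExpr, 1 mean per group, quasi-likelihood F test, Benjamini-Hochberg over 15596 or 15745 genes), with 10 comparisons in all. CPM are TMM-scaled, except RPKM and marker and haemoglobin sums, which use plain totals. The fit was tested on simulated data. Alternatives used limma 3.58.1 and DESeq2 1.42.0, other scalings, no filter, a replicate block, a haemoglobin term and left-out libraries; an atrial term, added copies and leaving out libraries with discordant Cpt1a were chosen after seeing the data. All mRNAs and rRNAs are named, the 3 tRNAs with the highest mean CPM get values, and up to 4 called genes per list with the smallest p are named. Members and lists were chosen with earlier results of these data known. Nuclear copies were found by exact matches of 100-base windows in GENCODE M21 transcripts, with sequences and coordinates from that release.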

Additional observations from a re-analysis of the deposited data

Results flagged for a closer look

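Among 126 sets of values from groups of 4 libraries, 5 held a library whose gap to its nearest neighbour exceeded Dixon's 95% limit for its share of the range, where chance flags about 1 set in 20. mt-Nd3 stood at 146 CPM in KO_sham 3 and at 111 to 115 CPM in the other KO_sham libraries. mt-Atp8 stood at 66.5 CPM in FF_sham 1, against 16.2 to 21.6 CPM in the others, and at 199 CPM in AAV_TAC 1, against 54.4 to 77.9 CPM. mt-Tp stood at 161 CPM in KO_TAC 4, against 96.7 to 103 CPM, and at 210.4 CPM in AAV_TAC 4, against 178 to 183 CPM.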

How the results depend on the processing

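The counts of 19 and 15 lower genes in KO_TAC stayed at 19 and 15 with RLE size factors, nuclear scaling and added copies. There 25.8% to 25.9% of all genes were called against KO_sham and 14.3% against FF_TAC. The counts were 18 to 24 and 15 to 20 under plain totals, no filter, DESeq2, limma voom and the atrial term. The share of all genes called in those fits ran from 9.69% (no filter) to 53.4% (limma voom) against KO_sham. Against FF_TAC it ran from 5.14% to 38.5%. Against KO_sham the haemoglobin term left 1, with 1.75% of all genes called. Leaving out single libraries there gave 11 to 18, with 12.3% to 40.8% of all genes called. Against FF_TAC the low-haemoglobin libraries alone gave 0, with 0% of all genes called. Leaving out single libraries there gave 11 to 17, with 7.08% to 24.3% of all genes called. The interaction gave 11 with limma voom (18.8% of all genes called), 1 with DESeq2 (2.35%) and 0 to 2 with a library left out (0% to 1.36%). PBS_TAC against PBS_sham gave 1 with limma voom (1.6% of all genes called), 2 with DESeq2 (2.25%) and 0 to 1 with a library left out (0% to 11.1%). AAV_TAC against AAV_sham gave 1 with limma voom (2.33%), and AAV_sham against PBS_sham gave 0 to 9 with a library left out (0.00636% to 17.4%). Per 100 nuclear counts, the difference in mitochondrial share was -12.7 against KO_sham and -10.3 against FF_TAC, a change of denominator. The estimate of mt-Nd6 against KO_sham was -0.054 with the haemoglobin term and -0.11 to 0.38 with single libraries left out. Against FF_TAC it was 0.14 with limma voom, 0.20 without the libraries with discordant Cpt1a and -0.34 to 0.15 with single libraries left out. With copies added, mt-Co3 became 0.18 and 0.55. The causes of these differences were not tested, apart from the fewer libraries or extra terms in those fits.

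Same-numbered libraries of different groups deviated over a range like that of differently numbered ones. Correlations of their deviations ran from -0.373 to 0.454 in 24 floxed pairs, 9 of them over 0.1. In 19 AAV9 pairs they ran from -0.407 to 0.396, with 7 over 0.1. Differently numbered pairs ran from -0.447 to 0.492 in 72 floxed pairs, 22 of them over 0.1. In 54 AAV9 pairs these ran from -0.445 to 0.548, with 21 over 0.1. The numbers were not used as pairs. With the replicate block 18 and 15 genes were lower in KO_TAC, where 24.9% and 13.6% of all genes were called. In the other comparisons 0 were called, where at most 0.122% of all genes were. Of 46 named values 45 kept their call. Depth limited the tRNAs, of which 5 were not tested, and mt-Nd4l and mt-Atp8, which had as few as 42 and 70 counts in a library.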
